A study of Mus musculus with 12 samples.

Results

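Amino acids that are not needed for protein are taken apart in the liver, mostly in hepatocytes. Phenylalanine is converted to tyrosine, and tyrosine is broken down to fumarate and acetoacetate. Histidine is opened through urocanate to glutamate, serine can be deaminated to pyruvate, glutamine gives up its amide nitrogen, and aminotransferases move nitrogen between amino acids and keto acids. The 9 genes described here stand for these routes. They are Tat, Hpd and Fah (tyrosine), Hal and Uroc1 (histidine), Sds and Agxt (serine and glyoxylate), and Gls2 and Got1 (glutamine and aspartate). They were taken by gene name from a table of liver regions enriched for H3K27ac, the acetylated form of lysine 27 on histone H3, which is found at promoters and enhancers in use. Of 36387 regions in the table, 48 carried the name of 8 of these genes. Hpd, the second enzyme of tyrosine breakdown, had no region among those used and was not analysed here.

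The study compared regenerating livers labelled Cox10-/- with livers labelled wild-type, 3 H3K27ac libraries each. All mice carried the floxed conditional Cox10 allele and received AAV8-Cre, which recombines the allele in liver, or AAV8-GFP, 4 weeks before a 70% partial hepatectomy. The labels give each library's genotype but not its virus. Livers were taken on day 2 after surgery. Cox10 makes an enzyme of heme A synthesis, which cytochrome c oxidase needs. Whole liver was used, so other liver cells are included, while the sources used here do not give the promoter that drove Cre, the strain or the ages. The labels do not say that each replicate came from its own animal, so p-values rest on the spread between libraries, which may be technical. The limma fits share that spread among regions or genes of similar level. A printed SE or limma p-value therefore does not measure the spread of that region or gene alone. In the fits of regions and of promoter genes it mostly reflects others of similar level. Very small p-values there say little about the spread of a single gene's own libraries.

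Regions held 3282878 to 3385453 reads per Cox10-/- library and 3897454 to 4187377 per wild-type library, and the authors' normalised reads are used below. On that deposited scale 87.2% of all regions were lower in Cox10-/- livers and 4.46% higher (limma, adjusted p under 0.05), with a median log2 change of -1.04. Most changes are also given on a centred scale, after every library was centred on its own median region, where 32.4% of regions were lower and 33.6% higher. Whether fewer hepatocytes or less acetylation per cell lies behind a lower value in whole tissue cannot be told apart. Hepatocyte markers had regions for 7 of 8 genes, with summed levels of 4826 to 5466 normalised reads in Cox10-/- and 15767 to 16343 in wild-type libraries. Macrophage markers had regions for 2 of 9 genes, with summed levels of 518 to 611 normalised reads in Cox10-/- and 290.4 to 304 in wild-type libraries, while Clec4f, Adgre1, Csf1r, Marco, Vsig4, Cd5l and Timd4 had none. Endothelial markers had regions for 3 of 8 genes (361 to 449.5 against 580.3 to 636 normalised reads), and stellate cell markers for 0 of 6. Biliary markers had regions for 2 of 5 genes, with 82.6 to 97.7 normalised reads in Cox10-/- and 97.2 to 117.6 in wild-type libraries. Other blood cell markers had regions for 1 of 6 genes, with 31.1 to 36.3 in Cox10-/- and 121.4 to 169 in wild-type libraries. The ratio of mean sums, Cox10-/- over wild type, was 0.323 for hepatocyte and 0.235 for other blood cell markers. It was 1.93 for macrophage, 0.663 for endothelial and 0.867 for biliary markers, against 0.496 over all regions. The part of cell composition in the changes below was not tested. Cox10 had 1 region, in an intron, with 57.4 ± 10.3 normalised reads in Cox10-/- and 15.1 ± 2.54 in wild-type libraries (SD, n = 3 each), which does not check the deletion.

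The 48 regions together held 2732 ± 249.8 normalised reads in Cox10-/- libraries and 7643 ± 101.7 in wild-type libraries (SD, n = 3 each), 64.3% less. The ratio of these sums was 0.357, against 0.496 over all regions. H3K27ac fell at 45 of the 48 regions and rose at 0 (limma, against 87.2% and 4.46% of all regions), and all 48 log2 changes were negative, so 0 were higher at an unadjusted p under 0.05. On recovered reads, edgeR also gave 45 and 0 (87.3% and 4.42% of all regions), as did DESeq2 (84.8% and 3.57%). The authors' deposited calls gave the same 45 and 0, against 30858 lower and 1301 higher of all 36387 regions. The median log2 change of the 48 regions was -1.53 (2.88-fold lower, range -3.16 to -0.09), against -1.04 for all regions, and 35 of the 48 lay below that median. On the centred scale 28 regions were lower, 8 higher and 12 not called, against 32.4% lower and 33.6% higher over all regions. TMM scaling in edgeR gave 31 lower and 8 higher (33.4% of all regions each way), and DESeq2 with its own size factors 28 and 5 (28.1% and 28.2%). The 28 regions lower after centring were lower under each of 6 scalings tried, while 4 of the 8 were higher under each of the 5 scalings other than the deposited one. In 47 of the 48 regions every Cox10-/- library lay below every wild-type library, as it did in 86.4% of all regions.

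Of the 48 regions, 21 were promoters, meaning within 1 kb of an annotated start site, 10 lay 1 to 3 kb from one, 8 were intergenic, 5 intronic, 2 exonic and 2 in a 3' UTR. Promoter regions of these genes had a median log2 change of -1.89, against -0.87 over all 15980 promoter regions. Regions 1 to 3 kb away had a median of -1.99, against -1.34 over all regions of that class. The 8 intergenic regions, all upstream of Tat, had a median of -1.03, against -1.23 over all intergenic regions. The 5 intronic regions, in Got1, Hal and Agxt, had a median of -0.98, against -1.28. After centring, 16 of the 21 promoter regions were lower and 3 higher (18.9% and 42.2% of all promoter regions), and 9 of the 10 regions 1 to 3 kb away were lower and 0 higher (45.4% and 22.3% of that class). Of the 8 intergenic regions 2 were lower and 1 higher (41.9% and 28.8%), and of the 5 intronic regions 0 were lower and 2 higher (42.1% and 27.7%).

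**Figure D1:**
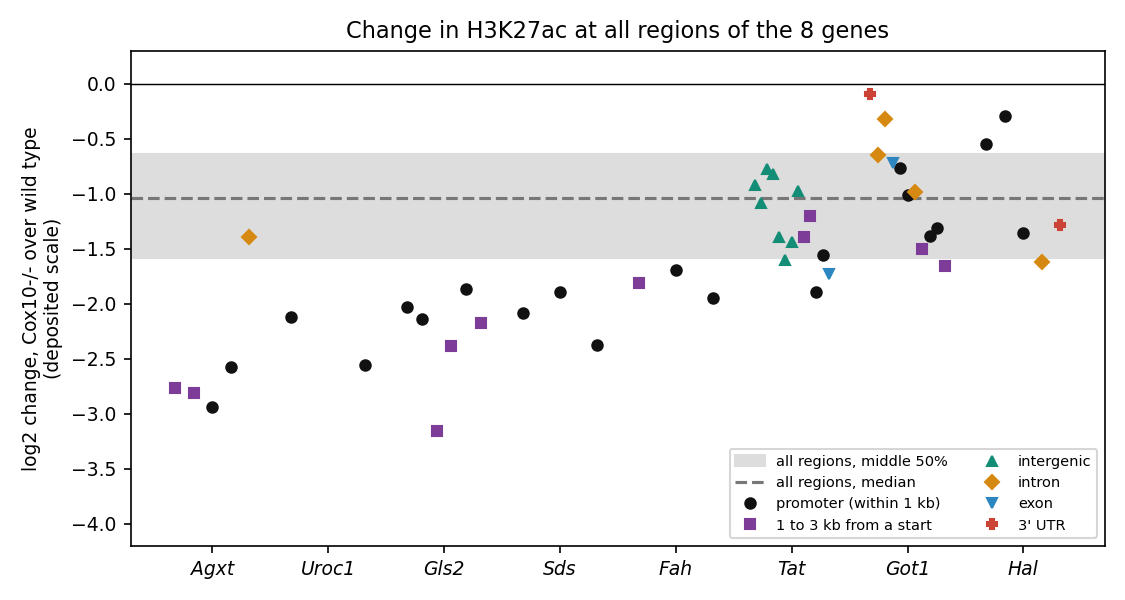
Log2 change in H3K27ac (Cox10-/- over wild type, deposited scale) at the 48 regions of 8 genes, 1 symbol per region, in genome order within a gene, with the shape giving the annotated class. The dashed line (-1.04) and grey band are the median and interquartile range of all regions; all regions of Agxt but the intronic one lie below the band, and 7 of the 11 Got1 regions lie above the dashed line.

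To give every gene 1 value, the promoter region with the most signal over the 6 libraries was taken to stand for it. At this level 8 of 8 genes were lower in Cox10-/- livers, as were 93.9% of 9663 promoter genes. After each library was centred on its median promoter gene, 7 were lower (23.8% of all promoter genes) and Hal was higher (26.4%). With the mean over all regions of a gene, 8 were again lower and 0 higher (91% and 2.78% of 11240 genes), and after centring 6 were lower and 0 higher (29.8% and 34%), Hal and Got1 not being called. The median log2 change was -1.89 on the deposited scale and -1.03 on the centred scale, against -0.82 and 0.05 over all promoter genes. Below, centred values of a gene's strongest promoter region are on this scale, and those of its other regions, and of counts of regions, are centred on the median region. From the deepest fall the order was Agxt, Uroc1, Gls2, Sds, Fah, Tat, Got1 and Hal. Of neighbours in this order, Uroc1 and Gls2 (difference 0.42, 95% interval 0.09 to 0.75) and Got1 and Hal (0.76, 0.45 to 1.07) had an interval of the difference that left out 0. These intervals took the errors of 2 genes as independent, although both genes were measured in the same 6 libraries. They therefore do not settle whether the other neighbours differ.

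**Figure D2:**
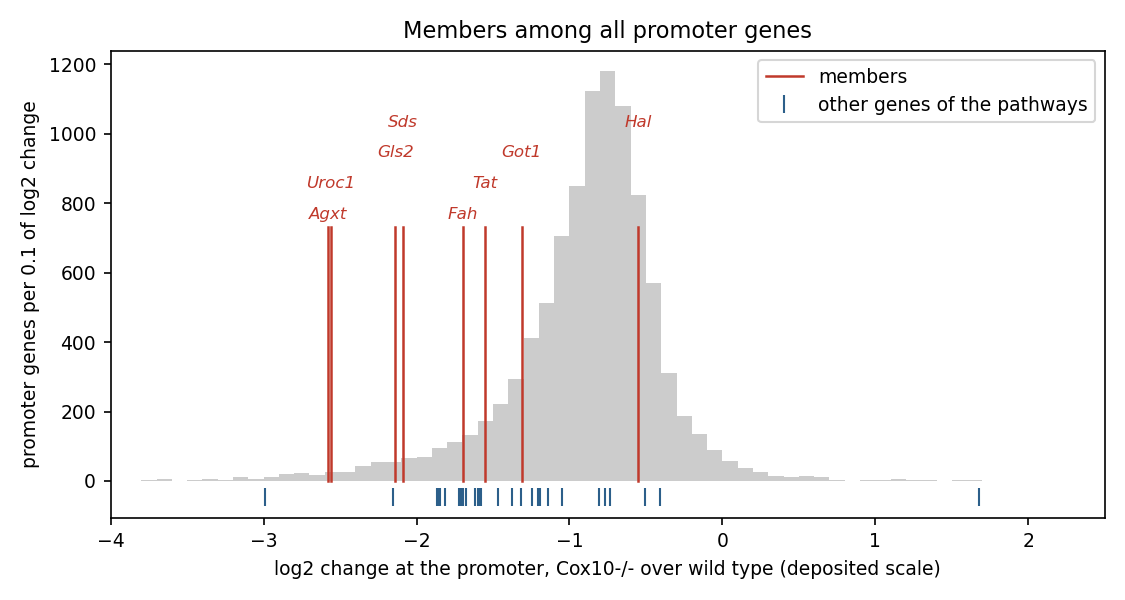
Number of promoter genes (y axis) by log2 change at the promoter, Cox10-/- over wild type (x axis, deposited scale), for 9663 genes, with red lines for the 8 genes described and blue ticks for 29 other genes of the same pathways. Agxt and Uroc1 lie at -2.58 and -2.56 in the lower tail, Hal at -0.55 to the right of the peak, and the lone tick at 1.68 is Asns.

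Promoter sequences are shown for the genes at the ends of this order, Agxt, Uroc1 and Hal, and for Tat, which had the most regions. They run from 250 bases before to 50 after the start site (RefSeq, GRCm38.p6, the assembly that mm10 names), 5′ to 3′ on the gene's strand. Capitals mark matches to 7 motifs or their reverse complements, searched on both strands. The TATA box was written TATAAA, the core of an HNF1 site GTTAAT, the HNF4A site CAAAGTCCA and the FOXA site TGTTTAC. The C/EBP site was written TTGCNNAA, the core of a cyclic AMP response element TGACG, and the core of a glucocorticoid receptor site AGAACA. The windows are chr1:93134990-93135289 (plus strand) for Agxt, chr6:90333039-90333338 (plus) for Uroc1, chr10:93488518-93488817 (plus) for Hal and chr8:109990186-109990485 (plus) for Tat.
Agxt: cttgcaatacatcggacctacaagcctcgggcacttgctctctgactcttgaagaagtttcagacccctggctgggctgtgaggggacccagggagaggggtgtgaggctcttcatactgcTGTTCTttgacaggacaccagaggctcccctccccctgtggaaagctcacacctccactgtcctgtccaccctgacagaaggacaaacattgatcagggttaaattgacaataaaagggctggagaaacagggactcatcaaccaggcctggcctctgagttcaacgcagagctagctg
Uroc1: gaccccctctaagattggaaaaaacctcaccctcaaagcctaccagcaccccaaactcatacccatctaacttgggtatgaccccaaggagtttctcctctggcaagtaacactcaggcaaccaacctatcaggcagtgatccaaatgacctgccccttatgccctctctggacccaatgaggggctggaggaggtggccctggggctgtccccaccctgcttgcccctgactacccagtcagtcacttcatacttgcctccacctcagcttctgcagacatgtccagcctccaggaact
Hal: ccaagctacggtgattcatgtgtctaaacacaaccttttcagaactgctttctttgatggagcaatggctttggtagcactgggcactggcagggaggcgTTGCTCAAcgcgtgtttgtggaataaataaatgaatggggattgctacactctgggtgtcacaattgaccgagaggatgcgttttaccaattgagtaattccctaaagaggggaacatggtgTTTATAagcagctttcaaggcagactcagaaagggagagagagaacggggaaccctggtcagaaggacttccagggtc
Tat: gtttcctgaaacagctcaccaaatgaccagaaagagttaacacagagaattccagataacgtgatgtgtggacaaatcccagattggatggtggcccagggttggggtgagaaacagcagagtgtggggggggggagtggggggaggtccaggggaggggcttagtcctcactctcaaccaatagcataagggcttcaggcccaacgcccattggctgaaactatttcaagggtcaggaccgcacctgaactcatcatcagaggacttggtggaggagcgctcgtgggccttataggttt

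Hal held TATAAA and TTGCNNAA, found in 13.6% and 10.8% of 32851 RefSeq promoters, and Agxt held AGAACA, found in 19.0% of them. None of the 7 motifs was found in the Uroc1 and Tat windows or in those of Fah and Got1. Sds and Gls2 are named only. A match is a description of letters, not a binding site. The start sites of Tat, Fah, Hal, Agxt and Got1 had a region within 1 kb on both sides and none over them, as did 30.2% of the 10865 RefSeq starts with a region within 1 kb. The Uroc1 start lay inside a region (34.5% of those starts). The Tat window had 0 bases inside a region, and its start site lay 286 bases from the region upstream and 54 from the one downstream.

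Tat encodes tyrosine aminotransferase, the first enzyme of tyrosine breakdown, a classical glucocorticoid-induced liver gene. Its main promoter region (chr8:109990490-109993069, in mm10 like all region coordinates here), the widest of the group at 2579 bases, held 295, 266 and 221 normalised reads in Cox10-/- libraries and 762, 781 and 746 in wild-type libraries. The genotypes did not overlap, and Tat was the strongest of the 8 promoter regions in both. It was 2.94-fold lower (log2 -1.55, SE 0.085, limma adjusted p = 1.1e-73) and 1.61-fold lower on the centred scale (log2 -0.69, adjusted p = 6.3e-22). Signal per kb was 101.1 ± 14.4 in Cox10-/- and 295.9 ± 6.65 in wild-type libraries (SD, n = 3), which was not the highest of the group.

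The 12 other regions of Tat ran from 12.2 kb upstream to 3.67 kb into the gene, where the last one lay in exon 5 of 12. All 13 regions fell on the deposited scale, by 0.78 to 1.89 (log2). The small promoter region just upstream of the start held 14.4, 22.6 and 19.7 normalised reads in Cox10-/- against 69.2, 68.5 and 78.0 in wild-type libraries, the deepest fall of the gene (3.71-fold). The exonic region was 3.32-fold lower, with 41.0 ± 13.2 against 134.5 ± 14.4 normalised reads. Upstream, the strong intergenic regions at -7.07 and -5.54 kb were 2.63-fold and 3.04-fold lower, with 170.3 ± 10.5 against 449.5 ± 27.9 and 105.8 ± 8.38 against 323.3 ± 26.3 normalised reads. The 4 regions 8.09 kb or more upstream fell by 0.78 to 1.08, near the median of all regions. A region nearer the start, at -4.22 kb, also lay near that median (log2 -0.98). Of the Tat regions, after centring, 6 were lower, 6 not called and 1, at -10.4 kb, higher (0.27, adjusted p = 0.028), but that one was not called when libraries were centred on the median promoter region or scaled to equal sums, or with DESeq2.

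Fah encodes fumarylacetoacetase, the last enzyme of tyrosine breakdown, whose loss causes tyrosinemia in humans. Its promoter region (chr7:84604820-84605780) held 135.1, 117.0 and 103.8 normalised reads in Cox10-/- libraries and 371, 378 and 405 in wild-type libraries. The genotypes did not overlap, and the fall was 3.24-fold (log2 -1.70, SE 0.10, adjusted p = 1e-58 in limma). A region 2.11 kb inside the gene, slightly stronger in wild type, was 3.52-fold lower (117.5 ± 14.4 against 414 ± 30.5 normalised reads). A weak region upstream of the start was 3.86-fold lower, with 23.9 ± 2.40 against 94.9 ± 6.05 normalised reads. With libraries centred on the median region, all 3 were lower, by 0.64 to 0.90 (log2). Centred on the median promoter gene, the strongest promoter region was at -0.83 (adjusted p = 5.3e-17).

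Hal encodes histidine ammonia-lyase, which turns histidine into urocanate, and its promoter fell least. The strongest promoter region (chr10:93487623-93488549), just upstream of the start, held 113.9, 96.0 and 105.3 normalised reads in Cox10-/- libraries and 151.7, 142.4 and 168.7 in wild-type libraries. The genotypes did not overlap on the deposited scale, with a 1.46-fold fall (log2 -0.55, SE 0.12, limma adjusted p = 1.1e-05). On the centred scale Hal was 1.24-fold higher (log2 0.32, adjusted p = 0.012). That call was lost without Cox10-/- replicate 1 (0.28, adjusted p = 0.052), Cox10-/- replicate 3 (0.26, adjusted p = 0.074) or wild-type replicate 2 (0.27, adjusted p = 0.066), and with the mean over its 3 promoter regions (0.15, adjusted p = 0.24).

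A small region at the start held 45.0, 41.2 and 31.8 normalised reads in Cox10-/- and 45.2, 49.3 and 49.8 in wild-type libraries, where the highest Cox10-/- value lay just under the lowest wild-type value. Its log2 change of -0.30 was not called (limma adjusted p = 0.14), and on the centred scale it was higher by 0.76 (adjusted p = 3e-04). The third promoter region, 0.67 kb into the gene, was 2.56-fold lower, with 43.5 ± 4.91 against 112.6 ± 6.56 normalised reads. At the far end, 26.9 and 27.6 kb from the start, a region in the last intron and one in the 3' UTR were 3.07-fold and 2.43-fold lower, with 12.1 ± 1.29 against 39.4 ± 7.38 and 27.6 ± 6.17 against 68.3 ± 12.6 normalised reads. None of these last 3 was called on the centred scale, but with libraries centred on the median promoter region, scaled to equal sums or by TMM the third promoter region and the intronic one were lower.

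Uroc1 encodes urocanase, the next enzyme of histidine breakdown. Its promoter region over the start (chr6:90333230-90334592) held 76.5, 81.5 and 54.5 normalised reads in Cox10-/- libraries and 427, 399.9 and 423 in wild-type libraries. The wild-type level stood at percentile 86.8 of promoter genes, and the genotypes did not overlap. The fall was 5.90-fold (log2 -2.56, SE 0.11, limma adjusted p = 2.6e-114), a depth that 1.22% of promoter genes reached, and 3.24-fold on the centred scale (log2 -1.69, adjusted p = 1.6e-40). The second region, 0.96 kb upstream, was 4.35-fold lower (26.1 ± 10.1 against 112.1 ± 13.8 normalised reads). Hal and Uroc1, which act one after the other, thus lay near opposite ends of the order, at -0.55 and -2.56 on the log2 scale.

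Sds encodes serine dehydratase, which makes pyruvate from serine. Its strongest promoter region (chr5:120476651-120477210) held 34.8, 25.8 and 23.5 normalised reads in Cox10-/- libraries and 114.4, 104.1 and 148.3 in wild-type libraries. It was the weakest of the 8 in wild type, and the genotypes did not overlap, with a 4.25-fold fall (log2 -2.09, SE 0.17, limma adjusted p = 1.6e-32). The other 2 promoter regions were 3.71-fold and 5.20-fold lower, the last with 6.17 ± 1.89 against 35.4 ± 1.40 normalised reads. With libraries centred on the median region, all 3 regions were lower, by 0.84 to 1.33 (log2).

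Agxt encodes alanine-glyoxylate aminotransferase, which clears glyoxylate, can use serine, and whose loss causes primary hyperoxaluria in humans. Its promoter region downstream of the start (chr1:93135345-93136091) held 38.2, 34.7 and 29.5 normalised reads in Cox10-/- libraries and 208.9, 216 and 198.1 in wild-type libraries. The libraries of each genotype lay close together, and the 5.96-fold fall (log2 -2.58, SE 0.15, limma adjusted p = 3.2e-68) was the deepest promoter change of the 8 genes, 3.27-fold on the centred scale (log2 -1.71, adjusted p = 2.9e-26). The 3 regions upstream of the start had larger falls still, on 5 to 16 reads per Cox10-/- library. Whether each differed from the stronger region was not tested. The promoter region at -0.3 kb was 7.68-fold lower (11.6 ± 1.89 against 95.6 ± 13.0 normalised reads), and those at -2.04 and -2.6 kb were 7.01-fold and 6.79-fold lower. The only intronic region, 3.2 kb into the gene, was 2.63-fold lower (27.5 ± 1.83 against 74.4 ± 11.1 normalised reads) and was not called on the centred scale (-0.34, adjusted p = 0.095), but was lower with libraries centred on the median promoter region or scaled to equal sums.

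Gls2 encodes the liver form of glutaminase, which frees ammonia from glutamine. Its main promoter region (chr10:128194675-128195509) held 69.7, 50.8 and 48.5 normalised reads in Cox10-/- libraries and 258, 247 and 240.3 in wild-type libraries. The genotypes did not overlap, and the fall was 4.40-fold (log2 -2.14, SE 0.13, adjusted p = 7.2e-62 in limma), 2.42-fold on the centred scale (log2 -1.27, adjusted p = 3.2e-21). All 6 regions were lower on both scales. A region 1 to 2 kb from a start (chr10:128196040-128196298) held 5.95, 7.26 and 3.03 normalised reads in Cox10-/- libraries and 49.2, 54.8 and 57.5 in wild-type libraries, the deepest fall of the 48 regions (8.91-fold, log2 -3.16, SE 0.34, limma adjusted p = 3.5e-17). It rested on few reads in Cox10-/- livers, where the lowest count in a library was 4. The other 4 regions were 3.66-fold to 5.22-fold lower.

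Got1 encodes cytosolic aspartate aminotransferase, which links aspartate and glutamate and is part of the malate-aspartate shuttle. Its strongest promoter region (chr19:43524798-43526035) held 175.1, 143.7 and 143.2 normalised reads in Cox10-/- libraries and 410, 385 and 354 in wild-type libraries. The fall was 2.48-fold (log2 -1.31, SE 0.10, limma adjusted p = 1.6e-38), and on the centred scale 1.36-fold (log2 -0.45, adjusted p = 7.9e-07). Among the strongest promoter regions of the 8 genes, that of Got1 had the highest signal per kb in Cox10-/- livers. It held 124.5 ± 14.8 per kb, against 309.5 ± 22.6 in wild type (SD, n = 3), close to Fah (123.6 ± 16.4, against 400.8 ± 18.7). Weaker promoter regions were left out of this ranking.

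The 11 regions of Got1 had smaller changes farther into the gene. The 4 regions from -1.92 to 2.41 kb fell by 1.31 to 1.66 (log2) and were lower on both scales. Regions at 3.81 and 7.73 kb had log2 changes of -0.98 and -1.01, near the median of all regions. Between 8.61 and 13.2 kb, 4 regions had log2 changes of -0.77, -0.72, -0.33 and -0.65, of which the third was not called. The region in the 3' UTR, 25.03 kb from the start, held 51.8, 41.2 and 51.5 normalised reads in Cox10-/- libraries and 57.2, 49.3 and 47.3 in wild-type libraries, and it alone of the 48 regions had overlapping genotypes (log2 -0.09, SE 0.18, limma adjusted p = 0.63). After centring the 5 regions from 8.61 kb on were higher, by 0.28 to 0.96; only those at 12.75 and 25.03 kb were so under each of the 5 scalings other than the deposited one.

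**Figure D3:**
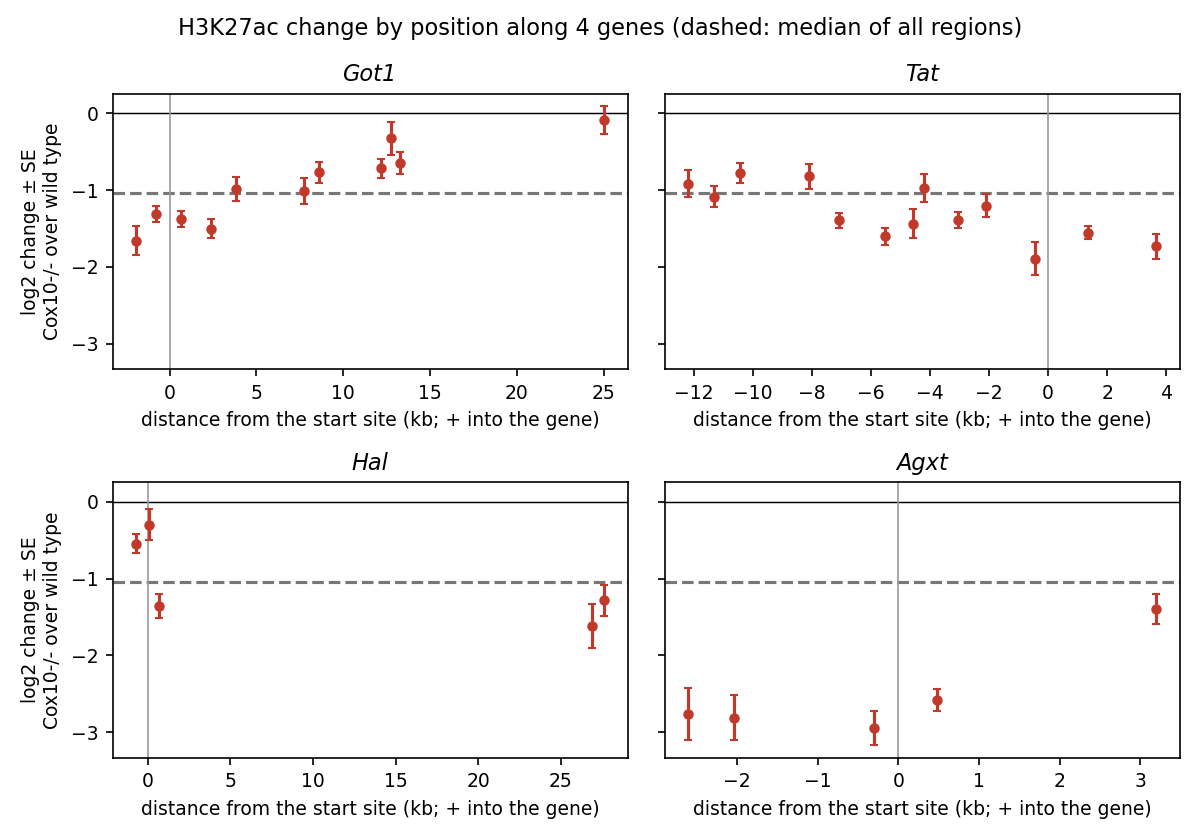
Log2 change in H3K27ac (± SE, Cox10-/- over wild type, deposited scale, 3 libraries each) by distance of a region's centre from the RefSeq start site, in kb, for Got1, Tat, Hal and Agxt. In Got1 the change is -1.66 at the most upstream region and -0.09 at the far end, and in Tat the 4 farthest upstream regions lie at -1.08 to -0.78. In Hal the changes nearest 0 are those at -0.68 and 0.11 kb, while the region at 0.67 kb has -1.36.

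**Figure D4:**
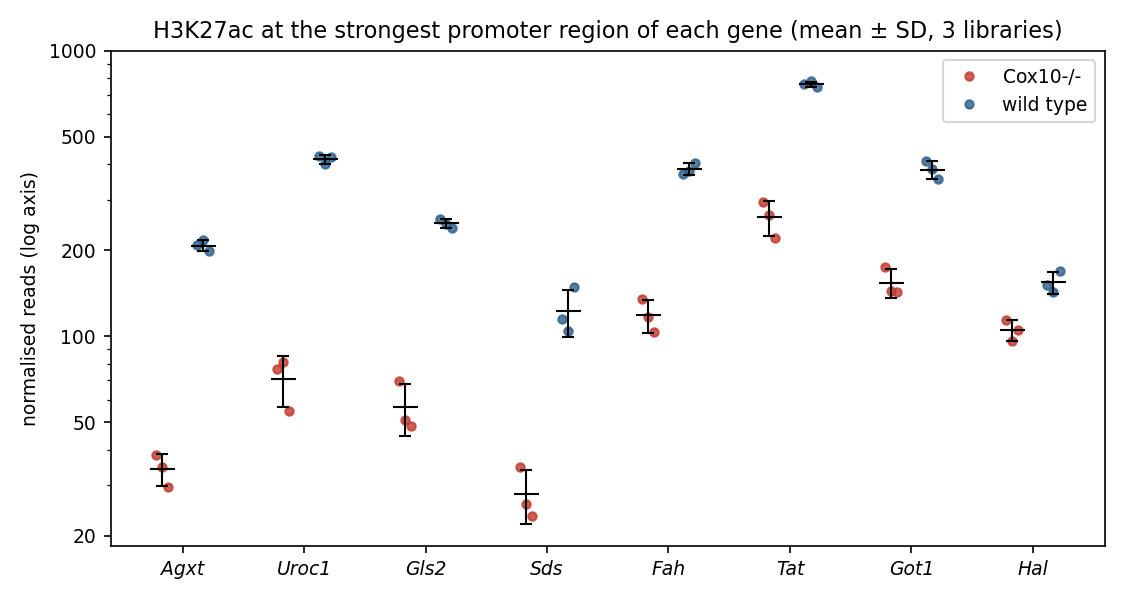
Normalised reads (log axis) at the strongest promoter region of each gene, 1 point per library, with mean ± SD, Cox10-/- in red and wild type in blue. The genotypes do not overlap at any of the 8 genes (no overlap with Cox10-/- lower in 93% of all promoter genes), and the gap is widest for Agxt and Uroc1 and narrowest for Hal.

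Regions away from promoters were set against the promoter of the same gene, to ask whether both moved alike. The difference is taken within a library, so the scaling between libraries nearly drops out. Over 3665 genes with both kinds, 37.8% had a deeper fall away from the promoter and 22.3% a shallower one. Of the 6 genes here with both, 4 were called. Got1 and Tat fell less away from the promoter: the level there minus the promoter level was -1.58 in Cox10-/- and -2.04 in wild-type libraries for Got1 (difference 0.47, SE 0.12, limma adjusted p = 0.010), and -2.03 and -2.37 for Tat (0.34, SE 0.10, adjusted p = 0.018). Hal and Gls2 fell further away from the promoter: -2.46 in Cox10-/- and -1.56 in wild-type libraries for Hal (-0.90, SE 0.21, adjusted p = 0.0059), and -2.41 and -1.97 for Gls2 (-0.43, SE 0.14, adjusted p = 0.025). Agxt (0.25, 95% interval -0.03 to 0.54) and Fah (-0.12, -0.41 to 0.17) were not called.

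**Figure D5:**
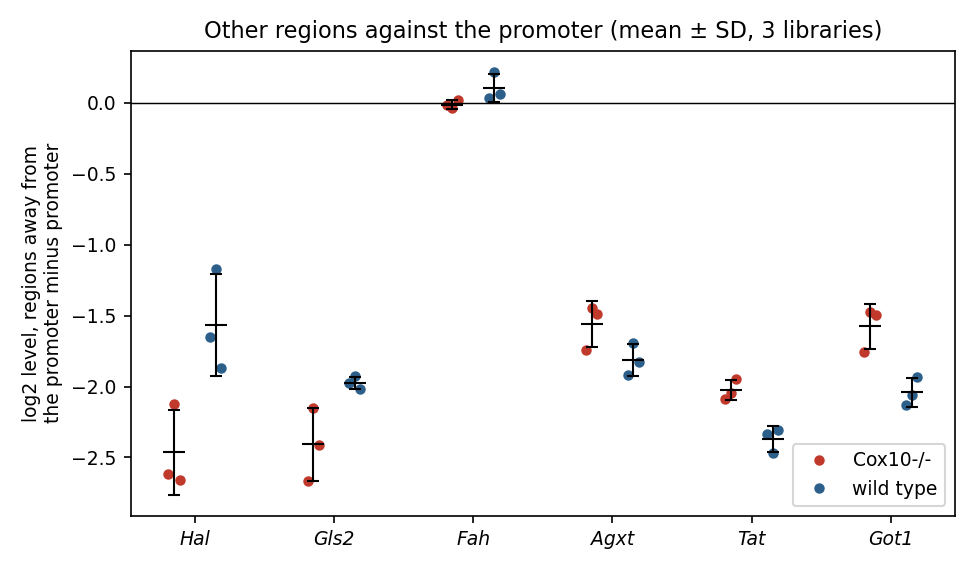
Mean log2 level of regions away from the promoter minus that of the strongest promoter region, 1 point per library, with mean ± SD, Cox10-/- in red and wild type in blue, for the 6 genes with both kinds. Cox10-/- points lie below wild-type ones for Hal, Gls2 and Fah, which was not called, and above them for Tat and Got1.

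The calls for Tat and Gls2 were not firm. Tat was not called without Cox10-/- replicate 3 (0.30, adjusted p = 0.054) or wild-type replicate 2 (0.29, adjusted p = 0.064). Gls2 was not called without Cox10-/- replicate 1 (-0.31, adjusted p = 0.075), Cox10-/- replicate 3 (-0.43, adjusted p = 0.056), wild-type replicate 1 (-0.43, adjusted p = 0.059) or wild-type replicate 2 (-0.41, adjusted p = 0.068), or with a pseudocount of 5 (-0.10, adjusted p = 0.52). Got1 was not called with the mean over its 4 promoter regions (0.27, adjusted p = 0.059). Agxt was called without Cox10-/- replicate 1 (0.35, adjusted p = 0.048), with a pseudocount of 5 (0.50, adjusted p = 0.0057) and with the mean over its 2 promoter regions (0.44, adjusted p = 0.027).

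Other enzymes of these routes came from a list of 36 genes. Of these, 31 had a region and 29 a promoter region; 27 of the 29 fell and 1 rose on the deposited values (93.9% and 0.807% of all promoter genes). After centring, 22 were lower and 2 higher (23.8% and 26.4%), and the median was -0.71 against 0.05 over all promoter genes. By route, 3 of 6 phenylalanine and tyrosine genes, 2 of 2 histidine genes, 11 of 13 serine, glycine and glyoxylate genes and 6 of 8 glutamine, glutamate, aspartate and alanine genes were lower on the centred scale. Hgd, an enzyme of tyrosine breakdown, had no region among those used.

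Hao1, hydroxyacid oxidase, which makes the glyoxylate that Agxt clears, fell deepest of the 29 promoters. It held 47.6, 50.04 and 45.5 normalised reads in Cox10-/- libraries and 374, 408 and 378 in wild-type libraries, a log2 change of -2.99 (SE 0.12, limma adjusted p = 4.2e-133). Grhpr, a reductase that also removes glyoxylate, had a log2 change of -1.59. Sardh, sarcosine dehydrogenase, had -2.15, and Shmt1, the cytosolic serine hydroxymethyltransferase, -1.87. Ftcd, which acts after Uroc1 in histidine breakdown, had 169.2 ± 18.1 normalised reads in Cox10-/- and 519.8 ± 5.55 in wild-type libraries (log2 -1.62).

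The 2 genes higher on the centred scale were Asns and Pts. Asns, asparagine synthetase, which builds asparagine rather than breaking it down, held 24.6, 29.1 and 29.5 normalised reads in Cox10-/- libraries and 7.98, 8.22 and 7.67 in wild-type libraries, a level low among wild-type promoters, at percentile 0.0414. It was the 1 gene of the list that rose on the deposited scale too (3.20-fold, log2 1.68, SE 0.36, limma adjusted p = 3.6e-06). The wild-type values of Asns rest on few reads, and whether its region was listed only because of its Cox10-/- level was not tested. Pts, which serves the making of the cofactor tetrahydrobiopterin, was lower on the deposited scale (log2 -0.51) and higher on the centred scale (0.36, adjusted p = 0.014). The Pts call was lost without wild-type replicate 1 (0.29, adjusted p = 0.082) or wild-type replicate 2 (0.32, adjusted p = 0.054).

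The genes outside these pathways whose promoter levels over the 6 libraries lay nearest to the mean of the 8 promoters were St6galnac6, Tesk2 and Dnaja1, with root mean square distances of 0.08, 0.09 and 0.10 on the log2 scale. Their promoters were 3.55-fold, 3.45-fold and 3.71-fold lower in Cox10-/- livers, and 1.95-fold, 1.89-fold and 2.04-fold lower on the centred scale. Because they were chosen by levels in both genotypes, falls near the mean of the 8 promoters follow from the choice.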

How the data were processed

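H3K27ac ChIP-seq was made from whole regenerating liver with spike-in chromatin, per the labels' protocols. BWA 0.7.5, MACS, deepTools 3.5.0 and mm10 are named in the submitters' processing notes without roles. The deposited signal values are read counts per region divided by 1 size factor per library (1.18 to 1.32 in Cox10-/- and 0.730 to 0.782 in wild-type libraries). The sources used here do not say how the factors were made or whether they use the spike-in. The deposited table also holds the authors' log2 fold changes, p-values and 2 score columns (a standard error and a test statistic), of which the calls are cited once.

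Of 36446 regions, 59 repeats were dropped, leaving 36387 with 11240 gene names. Whole reads were recovered for 100% of values within 0.01 reads. Changes were fitted with limma 3.58.1 (R 4.3.3) on log2(signal + 1) over all regions or promoter genes, so fold changes of weak regions are understated, with a Benjamini-Hochberg adjusted p under 0.05. Deposited values, values centred on each library's median and the difference between region classes were fitted. In each limma fit the variance of a region or gene was drawn toward a trend with level over all of them. On the deposited scale all-region values shift by -1.04 (median log2). Alternatives were edgeR 4.0.16, DESeq2 1.42.0, other centrings, pseudocounts of 0.5 and 5, a mean signal filter of 10, an adjusted p under 0.01, other promoter summaries, a replicate block and leaving out each library. The limma fits of uncentred regions and of the difference between region classes were tested on simulated data, the first without a shift common to all regions. The centred fits and the promoter gene fits were not. The 6 input libraries were not used.

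Genes were matched by the name the deposited table gives each region. Named genes were the 9 above, up to 4 other pathway genes in each direction with the smallest centred adjusted p, Hgd, Ftcd, the 3 genes with the nearest promoter profile, and Cox10; some other genes the rule names are not reported here. Promoter sequences were matched by symbol for 7 of the 9 genes. Of 12466 promoter regions with a RefSeq gene name, 85.2% lay within 1 kb of a RefSeq start. The genes and lists were chosen with earlier results of these data known.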

Additional observations from a re-analysis of the deposited data

How the results depend on the processing

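Over all alternatives, 115 counts stayed within 1.5 times the reported count and 11 did not; of single-gene values 232 kept direction and call, 14 lost the call, 3 gained it and 3 changed sign. On the centred scale, 8 higher regions became 5 with DESeq2 and 4 with centring on the median promoter region. Hal, the 1 gene higher at its promoter, gave 0 with the mean over its promoter regions and 0 with the mean over all its regions, and 0 to 1 when single libraries were left out. With the mean over all regions Hal was -0.056 and Got1 0.019 (centred log2); the difference of Fah between other regions and its promoter, not called, was 0.0085 with the mean over its promoter regions, against -0.12; the cause was not tested. The 4 genes whose regions differed from their promoter became 2 to 4 when single libraries were left out, with 2 without Cox10-/- replicate 3 or wild-type replicate 2. The 2 other pathway genes higher became 1 to 2 when single libraries were left out, and 3 with the mean over all regions of a gene. Libraries with the same replicate number did not deviate together (correlations -0.00092, 0.0074 and 0.0054), so the numbers were not taken as pairs. With the replicate block the counts were 45 lower and 0 higher regions on the deposited scale, 28 and 8 on the centred scale, 8 genes lower at promoters, 7 and 1 on the centred scale, 4 genes with a class difference, and 22 and 2 other pathway genes. The 48 regions held 4 to 347 reads in a Cox10-/- library and 25 to 584 in a wild-type library, and the SE of a log2 change ran from 0.084 (Tat) to 0.37 (Sds).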
